A study of Caenorhabditis elegans with 83 samples.

Results

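Small RNAs of met-2 mutant and wild-type Caenorhabditis elegans were compared 15 generations after an ancestor had eaten bacteria making double-stranded RNA against GFP. The comparison used 6 of the 83 libraries of the series, chosen by their labels alone: 3 of met-2(n4256);SX1263 and 3 of SX1263, which is named wild type here. Every animal carried SX1263, a strain with a GFP reporter in the germline, so both groups share that background. The P0 ancestors had fed on anti-GFP bacteria and their F15 descendants were sampled. The 6 other F15 libraries, again 3 per genotype, descended from ancestors kept on bacteria with an empty vector, and are called control lines. For F3, 3 libraries of each genotype from anti-GFP ancestors were compared. All were RNA of whole day 1 adults grown at 20 °C. The mutant is represented by the single allele n4256, so an effect of met-2 and any other difference between the strains cannot be told apart.

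MET-2 is the worm counterpart of the SETDB1 enzymes and methylates lysine 9 of histone H3, a mark of silent chromatin. In C. elegans, double-stranded RNA that is eaten leads to secondary small RNAs, made by RNA-dependent RNA polymerases on the target messenger RNA and bound by worm-specific Argonaute proteins. In the germline such small RNAs can pass to progeny that never met the trigger, and the nuclear Argonaute HRDE-1 carries them to chromatin, where histone methylation of the target follows. A separate, much larger population of endogenous small RNAs matches a large part of all genes. Values below are small RNA counts assigned to each gene, in counts per 1000000 counts on genes (CPM), and describe small RNAs matching a gene, not its messenger RNA. Whether the counted reads lie in the antisense or the sense orientation is not given in the sources used here.

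The 6 libraries held 5142064 to 7173956 counts on genes, so 3 counts in a library stood for 0.401 to 0.638 CPM. No pair of libraries was identical. Nothing in the labels says whether the 3 libraries of a group came from separate cultures, so p-values measure the spread between these libraries. That spread differed by genotype. On a log2(CPM + 1) scale, the SD within the group was above 1 for 500 genes (4.68%) in the met-2 anti-GFP lines and for 67 (0.628%) in wild type, and for 632 (5.92%) and 120 (1.12%) in the control lines. Correlations between libraries of a group, across genes, were 0.951 to 0.961 in met-2 and 0.985 to 0.990 in wild type.

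The met-2 row itself (III:8375300-8380848 in WBcel235, plus strand) had 106, 96.7 and 103 CPM in the mutant libraries and 410, 442 and 356 CPM in wild type. The mutant libraries were thus low in every case, 3.96-fold below wild type (log2 −1.99, SE 0.11, edgeR's quasi-likelihood test with Benjamini-Hochberg adjustment, adjusted p = 1.99e-06). The control lines differed alike, at log2 −2.02. Which part of the row lies outside the lesion was not analysed here. The row of set-25, which encodes the other main histone H3 lysine 9 methyltransferase, had 201, 205 and 196 CPM against 291, 288 and 324 CPM. It was 1.501-fold lower in the mutant (adjusted p = 0.00187), without overlap between the groups.

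Of 10675 genes with enough counts to test, 1566 were higher and 1652 lower in met-2 at an adjusted p under 0.05, which is 14.7% and 15.5% of the genes tested and 30.1% together. The median change over all genes was 0.00 on the log2 scale. The scaling between libraries centres typical genes on no change, so a shift shared by most genes could not be seen. The changes were large: 1393 of the higher genes and 1177 of the lower genes differed by more than 1 on the log2 scale, and 772 and 651 by more than 2. The genes called lower were the more abundant, with a median of 35.2 CPM in wild type and 10.1 CPM in met-2, while those called higher had medians of 2.15 and 9.53 CPM. Together the genes called lower summed to 30.0% of 1000000 CPM in wild type and 13.8% in met-2. Those called higher summed to 5.82% and 16.7%. The scaled CPM of all genes tested summed to 1036220 in wild type and 968810 in met-2. The percentages are thus not shares of each group's own total. The count of higher genes rested more on single libraries: it was 802 without wild-type library 1 and 777 without wild-type library 2, and both directions together came to 2139 without wild-type library 1. In every fit that left out 1 of the 6 libraries, 655 of the higher genes (41.8%) and 1143 of the lower genes (69.2%) stayed called.

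The GFP row was among the genes higher in met-2. It had 981, 933 and 1069 CPM in the mutant libraries and 81.9, 86.7 and 89.3 CPM in wild type. Each mutant library was thus far above each wild-type library, 11.57-fold on average (log2 3.53, SE 0.12, adjusted p = 1.16e-07). In the control lines the order was the opposite, with 54.9, 63.99 and 51.9 CPM in met-2 and 75.2, 86.2 and 83.3 CPM in wild type (log2 −0.52, SE 0.11, adjusted p = 0.00481). At F3 after anti-GFP feeding, met-2 had 558, 694 and 661 CPM and wild type 192, 172 and 250 CPM. From F3 to F15 the wild-type level thus came down to that of its control lines, while the mutant level was above its F3 level in every library. The genotype effect at F15 exceeded that at F3 by 1.90 on the log2 scale (SE 0.24, adjusted p = 6.01e-05).

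The row CB-unc-119, which by its name is the unc-119 gene of C. briggsae, a common marker for making transgenic worms, went the other way. It had 67.6, 19.3 and 14.97 CPM in the met-2 anti-GFP libraries and 1691, 1702 and 2312 CPM in wild type. The first mutant library was the highest of the mutants but still far below each wild-type library, and the mean was 56.1-fold lower in met-2 (log2 −5.81, SE 0.58, adjusted p = 6.59e-05). In the control lines met-2 had 414, 303 and 485 CPM against 1838, 1630 and 2451 CPM (log2 −2.30, adjusted p = 0.00489). The effect was thus 3.51 log2 units lower in the anti-GFP lines than in the control lines, a difference that did not pass the test over all genes (SE 0.68, adjusted p = 0.674), although it did without met-2 anti-GFP library 1 (−4.48, adjusted p = 0.00171). At F3 the genotype effect was −2.81, and the step of −2.98 from F3 to F15 passed (adjusted p = 0.00123).

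The worm's own unc-119 (III:10902641-10908935, plus strand), which encodes a lipid-binding trafficking protein needed in neurons, resembled CB-unc-119 in the anti-GFP lines and not in the control lines. Its levels were 12.9, 28.1 and 17.4 CPM in met-2 and 109, 90.3 and 118 CPM in wild type (5.43-fold lower, adjusted p = 8.87e-05). In the control lines it had 82.7, 114 and 117 CPM against 120, 104.1 and 126.1 CPM, which overlap (log2 −0.16, adjusted p = 0.651). The difference between these effects was −2.27 (SE 0.34, adjusted p = 0.251), and it passed without met-2 anti-GFP library 2 (−2.64, adjusted p = 0.00337) and with DESeq2 (−2.29, adjusted p = 6.97e-06). The step from F3, where the effect was −0.74, was −1.67 (adjusted p = 0.00398). Both unc-119 rows may share reads, as the genes are related, and this was not tested.

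**Figure D1:**
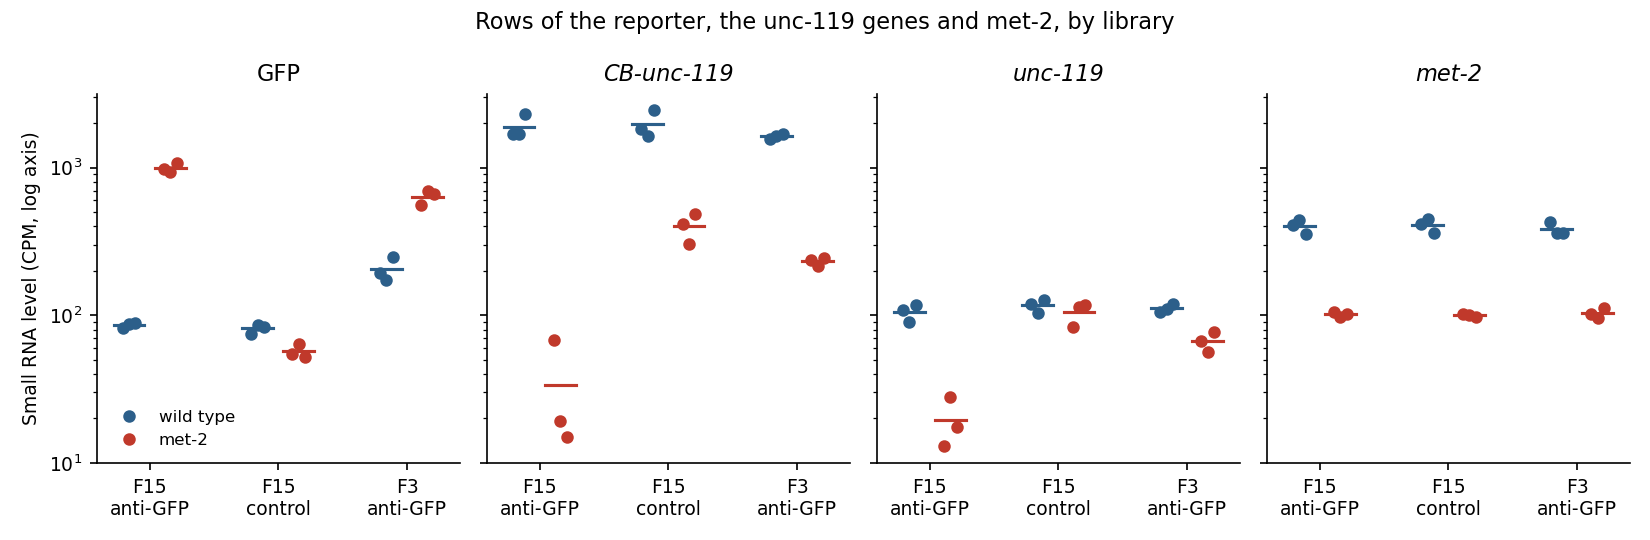
Small RNA level in CPM (log axis) of GFP, CB-unc-119, unc-119 and met-2 in each library (points) with the group mean (bars), for wild type (blue) and met-2 (red). In the F15 anti-GFP lines GFP lies at 933 to 1069 CPM in met-2 and 81.9 to 89.3 CPM in wild type, while CB-unc-119 lies at 14.97 to 67.6 CPM and 1691 to 2312 CPM.

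The 10 largest falls among genes with at least 5 CPM in wild type were even between libraries for most genes. E02H9.9 (III:2467281-2468302, minus strand) had 0.156, 0.668 and 0.758 CPM in met-2 and 137, 140 and 196 CPM in wild type. That is a 299-fold lower level in the mutant, and the largest fall of the comparison by this rule (log2 −8.18, SE 0.32, adjusted p = 3.01e-07). It was also low in the control lines (log2 −8.98) and at F3 (−9.07). pdfr-1 (III:6632837-6652083, minus strand), which encodes the receptor of PDF neuropeptides, had 1.71, 1.60 and 1.89 CPM against 145, 153 and 192 CPM, a 94.0-fold difference (adjusted p = 9.60e-06). arrd-15, an arrestin-domain gene, had 2.02, 1.203 and 1.89 CPM against 133, 147 and 136 CPM, an 81.1-fold difference (adjusted p = 3.65e-06). For these genes the mutant libraries sat within a few CPM of 0 while the wild-type libraries stood above 100 CPM. scl-27, of the secreted SCP-like family, had 3 counts over the mutant libraries and 405 over wild type, 147-fold lower with a counting interval of 50.2 to 720. T08D2.4, Y60A3A.16, Y51A2A.5 and B0462.5 had 1 or 2 counts over the mutant libraries and 164 to 280 over wild type, and their ratios of 83.0 to 179 carry intervals that span more than an order of magnitude. Y55D5A.1 was 188-fold lower, with a wild-type library at 51.7 CPM and the others at 256 and 298 CPM. nlp-40, which encodes a neuropeptide-like protein, was uneven in wild type (51.1, 7.24 and 117 CPM), and its call was lost on leaving out any met-2 library, or wild-type library 1 or 3.

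The 10 largest rises went from no or almost no small RNA in wild type to levels that varied strongly between the mutant libraries. tag-329 (V:9534921-9536404, plus strand) had 74.7, 43.98 and 29.6 CPM in met-2 and 1 count over the wild-type libraries, 697-fold higher with a counting interval of 158 to 34842 (adjusted p = 8.84e-05). F44E2.4 (III:8832480-8838424, minus strand) had 153, 48.8 and 139 CPM against 0.182, 0.410 and 0 CPM, a 576-fold difference from 4 wild-type counts (adjusted p = 6.14e-05). These were the most even of the 10. syd-1, which encodes a protein that organizes presynaptic sites, had 9.496, 136 and 4.55 CPM against 1 wild-type count. C27A12.4 had 168, 1.34 and 26.1 CPM and no count in wild type, at least 381-fold higher by a floor of 3 counts over the group. For syd-1 a single library held most of the signal, and for C27A12.4 the libraries spanned 2 orders of magnitude. T19A5.3, M05D6.3, viro-2 and txt-17 also had no wild-type count and were at least 143-fold, 90.7-fold, 46.4-fold and 46.2-fold higher. C50H2.13 had 151, 223 and 11.74 CPM against 2 wild-type counts, and cut-3, a cuticlin gene, had 14.8, 75.5 and 2.84 CPM against 1. The calls of C27A12.4, C50H2.13, T19A5.3, M05D6.3 and viro-2 were each lost on leaving out any 1 wild-type library, those of T19A5.3, M05D6.3 and viro-2 also without met-2 library 1, those of M05D6.3 and viro-2 also without met-2 library 3 and that of M05D6.3 also without met-2 library 2. The call of cut-3 was lost without wild-type library 2. T19A5.3, M05D6.3, C50H2.13, cut-3 and viro-2 each overlap a gene on the other strand, and reads of the pair cannot be told apart.

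**Figure D2:**
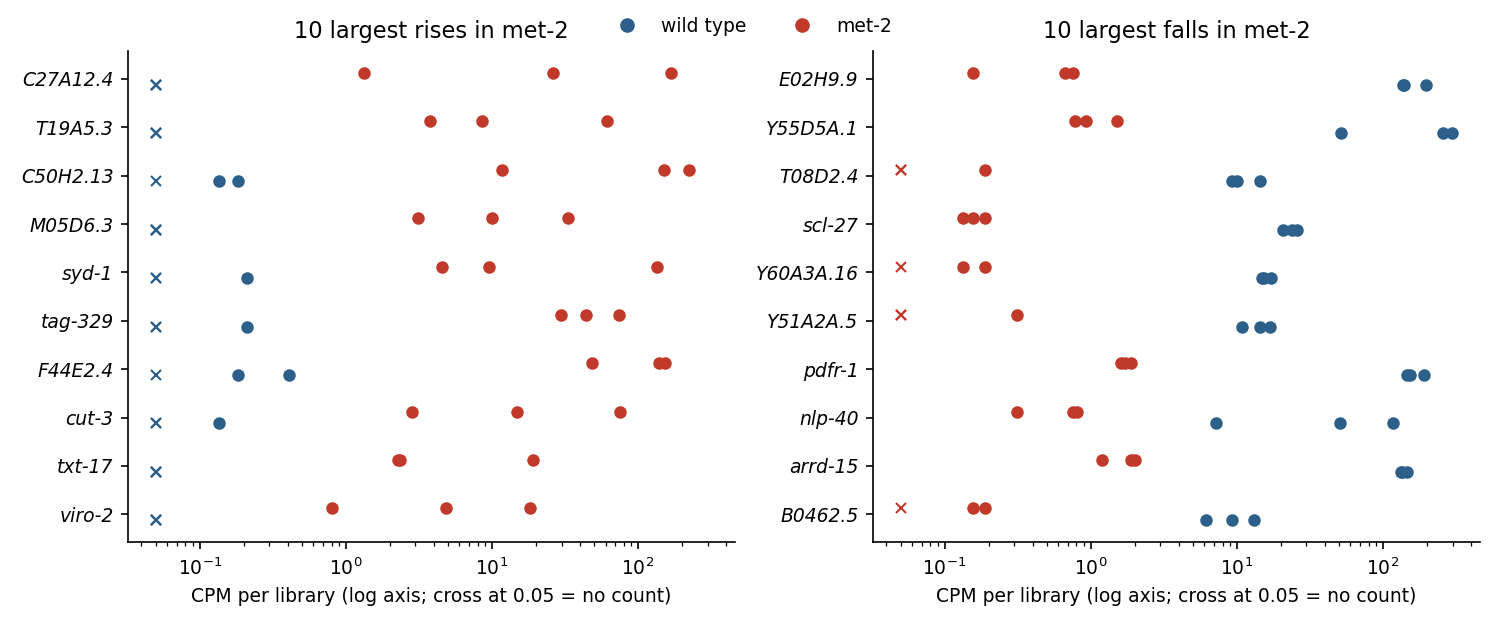
CPM per library (log axis, a cross at 0.05 marks a library with no count) of the 10 genes with the largest rises (left) and the 10 with the largest falls (right), wild type in blue and met-2 in red. For E02H9.9 the mutant points lie at 0.156 to 0.758 CPM and the wild-type points at 137 to 196 CPM, while the mutant points of C27A12.4 spread from 1.34 to 168 CPM.

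Unevenness among mutant libraries was not limited to genes that were called. In the met-2 anti-GFP lines 50 genes had 1 library about 10 times or more above both others at 5 CPM or more, and these were spread over the libraries, with 19, 15 and 16 genes. The corresponding counts were 5 genes in wild type, and 56 and 8 genes in the met-2 and wild-type control lines. The examples B0261.8, mam-4 and lim-9 were picked after their values were seen. B0261.8 had 1405, 45.7 and 11.4 CPM in met-2 and 53.0, 29.5 and 125 CPM in wild type, and was not called (adjusted p = 0.156). mam-4 had 24.1, 552 and 19.1 CPM in met-2 against 4.004 to 4.24 CPM in wild type, but in the met-2 control lines 470, 451 and 659 CPM, so high values there were the rule. lim-9, which encodes a LIM-domain protein of muscle attachments, had 17.7, 359 and 16.9 CPM in met-2 and 9.29 to 11.5 CPM in wild type. Both mam-4 (adjusted p = 0.0109) and lim-9 (adjusted p = 0.0367) were called, although 1 mutant library held most of the signal of each. abu-13 had 413, 27.5 and 40.2 CPM against 0.546, 1.09 and 1.49 CPM and was called (adjusted p = 0.00374).

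Among abundant genes the changes were smaller. Of the 5 most abundant genes called higher, Y54G11A.14 had 11635, 9818 and 8976 CPM in met-2 and 3472, 3801 and 5018 CPM in wild type, 2.48-fold higher (adjusted p = 0.00214). pan-1, which encodes a leucine-rich repeat protein, was 2.88-fold higher, cdh-12 of the cadherin family 1.98-fold, Y57G11C.51 1.88-fold and sqst-1, the worm p62 autophagy receptor, 1.55-fold. Of the 5 most abundant genes called lower, got-1.2, an aspartate aminotransferase gene, had 3847, 2952 and 3747 CPM against 6194, 6081 and 8249 CPM, 1.95-fold lower (adjusted p = 0.0257). F37D6.3 was 1.92-fold lower, C47G2.8 1.79-fold, eri-6, whose product is a helicase of the endogenous RNAi pathway, 1.75-fold and bath-45 1.60-fold. The 10 genes had no overlap between the groups, as did 1518 of the 1566 genes called higher and 1645 of the 1652 called lower, where 24.3% and 24.9% of all genes tested did not overlap in these directions. The calls of cdh-12 and Y57G11C.51 were lost without wild-type library 1 or 2, and that of cdh-12 also without met-2 library 1. Those of sqst-1, got-1.2, C47G2.8, eri-6 and bath-45 were lost in 3 to 5 of the 6 fits with a library left out.

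Lists of genes by family or role showed which targets lost small RNAs. Only members with enough counts were tested, such as 59 of 1284 chemoreceptor genes. A member could pass that filter through 1 genotype alone, so shares and medians describe the tested members only. Of 160 tested F-box genes, a large and fast-changing family of ubiquitin ligase adaptors, 96 were lower and 6 higher, with a median of −1.40 on the log2 scale against 0.00 for all genes. The share of 60% lower compares with 15.5% of all genes, of which 14.7% were higher. fbxa-115 had 2.49, 2.94 and 4.93 CPM in met-2 and 102, 135 and 147 CPM in wild type (37.2-fold lower, adjusted p = 2.77e-06), and fbxa-11 was 26.9-fold lower. The count of 6 higher F-box genes was 3 and 2 without wild-type libraries 1 and 2. Of 11 pals genes, a nematode family linked to the response to intracellular pathogens, 6 were lower and 1 higher, with a median of −2.18. pals-25 had 8.72, 8.96 and 10.99 CPM against 128, 129 and 183 CPM (15.4-fold lower, adjusted p = 4.03e-07). The 1 higher pals call was lost without met-2 library 3 or wild-type library 1 or 2. Of 59 chemoreceptor genes 26 were lower and 5 higher, with a median of −1.03, and srh-213 was 20.97-fold lower at 1.87, 0.668 and 0.758 CPM against 23.1, 17.9 and 28.1 CPM. The 5 higher calls fell to 3, 3 and 2 without met-2 library 2 and wild-type libraries 1 and 2. Of 162 annotated pseudogenes 58 were lower and 15 higher, the latter 9, 5 and 5 without the same libraries. Members of the F-box and chemoreceptor families have close copies, and counts may be split between them.

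Lists of known small RNA targets were short. Of 15 genes listed as targets of the ERGO-1 Argonaute, which acts in oocytes and embryos, 7 were lower and 2 higher. These 46.7% and 13.3% stand beside 15.5% lower and 14.7% higher of all genes tested. H09G03.1 had 13.2, 14.7 and 10.2 CPM in met-2 and 169, 142 and 196 CPM in wild type (13.3-fold lower, adjusted p = 6.59e-06), and E01G4.5 was 3.12-fold lower, a call lost without wild-type library 3 (adjusted p = 0.0543). The 7 lower calls became 4 without met-2 library 1 and 3 without wild-type library 3. The 2 higher calls became 1 without met-2 library 1 and 0 without met-2 library 3 or wild-type library 1 or 2. Of 6 targets listed for the worm-specific Argonautes 4 were lower (66.7%) and 0 higher. Among them lido-18 had 575, 600 and 696 CPM against 1404, 1310 and 1763 CPM (2.39-fold lower, adjusted p = 0.00104).

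The opposite pattern was seen for genes of sperm, intestine and cuticle. Of 58 genes in sperm protein families, such as the ssp and nspd genes, 27 had enough counts to test. Of these 20 were higher (74.1%) and 0 lower, with a median of 1.80 on the log2 scale, beside 14.7% higher and 15.5% lower of all genes tested. Members could pass the count filter through met-2 libraries alone, so the tested ones favour rises and the median does not describe the families. ssp-31 had 14.2, 19.8 and 13.3 CPM in met-2 and 2.002, 1.503 and 3.40 CPM in wild type (6.84-fold higher, adjusted p = 9.14e-04). The family sum was 194 CPM in met-2 and 61.2 CPM in wild type, so these remained low levels, and members with near-identical copies may share reads. The 20 calls became 7, 5 and 5 without met-2 library 2 and wild-type libraries 1 and 2. Of 29 other genes that act in sperm or in making them, 11 were higher (37.9%) and 1 lower (3.45%). fer-1, a ferlin needed for fusion of sperm membranous organelles, had 158, 53.3 and 37.7 CPM against 3.82, 2.73 and 5.103 CPM (21.4-fold higher, adjusted p = 0.00667). The 1 lower gene was spe-41, which encodes a sperm TRP channel, at 14.9, 14.4 and 19.7 CPM against 79.5, 69.5 and 98.4 CPM. The 11 higher calls became 7 and 6 without wild-type libraries 1 and 2.

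Of 176 cuticle collagen genes 46 had enough counts to test. Of these 23 were higher (50%) and 4 lower (8.70%), with a median of 2.41, beside 14.7% higher and 15.5% lower of all genes tested. A gene could pass the count filter through met-2 libraries alone, so the tested members favour rises and the median does not describe the family. col-158 (V:11829582-11831219, plus strand) had 502, 236 and 185 CPM in met-2 and 0.910, 1.23 and 2.55 CPM in wild type (197-fold higher, adjusted p = 4.51e-04). It overlaps nphp-4 on the other strand. rol-6, whose dominant mutants roll, had 0.467, 5.35 and 44.1 CPM against 1 wild-type count, and its call was lost on leaving out any wild-type library. The 23 higher collagens became 11, 9 and 15 without wild-type libraries 1, 2 and 3, and the 4 lower ones became 2 without met-2 library 2 or any wild-type library. Of 13 cuticlins 5 were higher (38.5%) and 3 lower (23.1%), the higher ones 3, 2 and 3 without met-2 library 1 and wild-type libraries 2 and 3. Of 31 genes of the intestine 21 had enough counts to test, with the same limit of the count filter. Of these 12 were higher (57.1%) and 1 lower (4.76%), with a median of 1.84. ifc-2, an intestinal intermediate filament gene, had 11.5, 22.1 and 25.01 CPM against 3.64, 2.73 and 6.59 CPM (4.52-fold higher, adjusted p = 0.00280). The 12 higher calls became 7 without wild-type library 1 or 3. In RNA of whole animals, a change in the number of cells of a type and a change in small RNA per cell cannot be told apart.

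**Figure D3:**
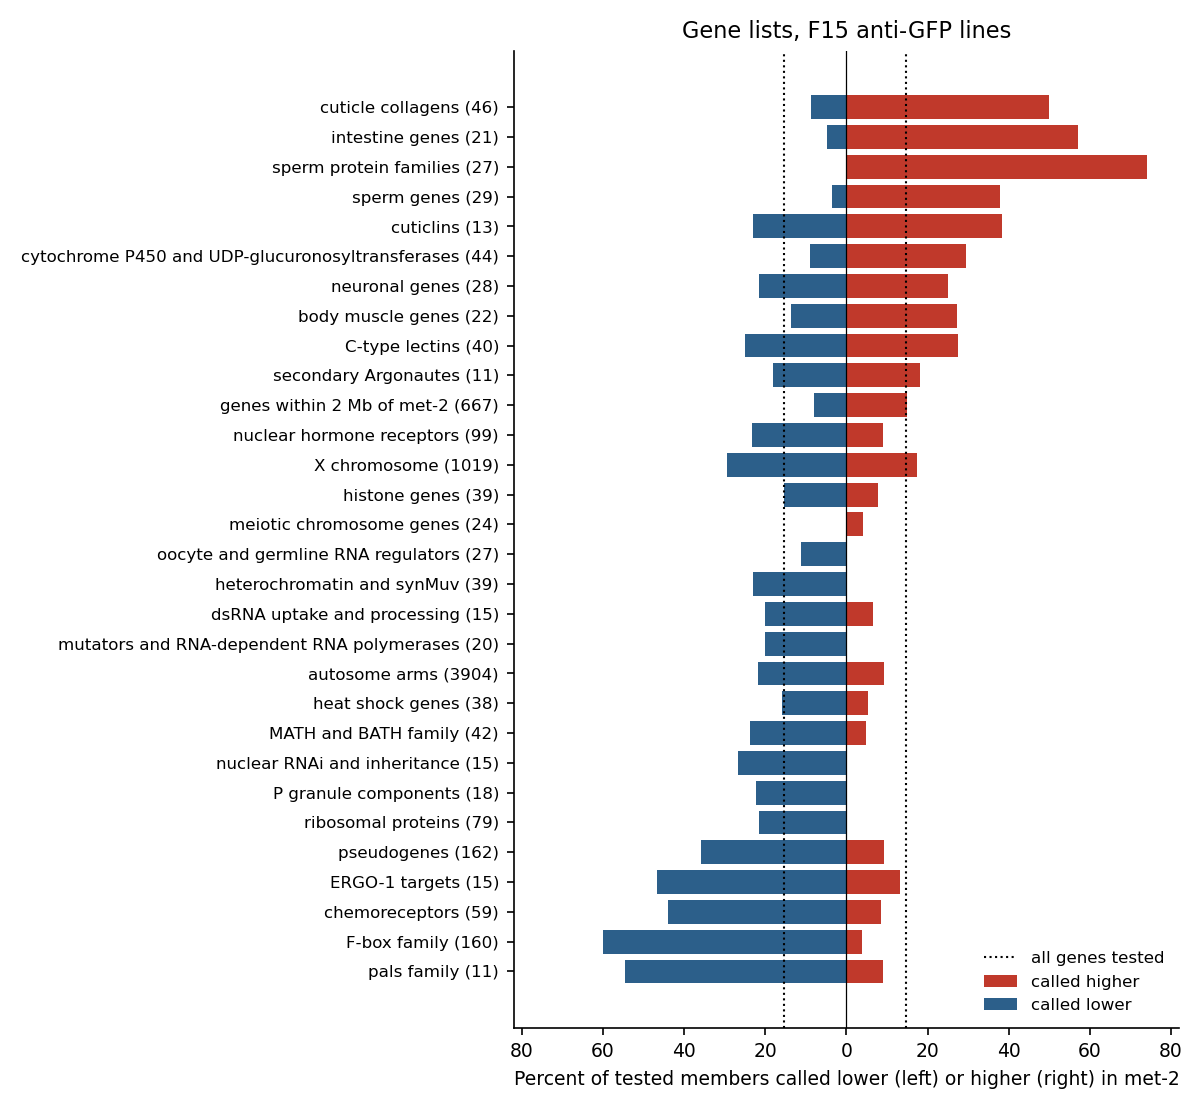
Percent of the tested members of each gene list (number tested in parentheses, lists with at least 11 shown) that were called higher (red, right) or lower (blue, left) in met-2 in the F15 anti-GFP lines, ordered by median change. Dotted lines mark all genes tested, 14.7% higher and 15.5% lower, and the F-box family stands at 60% lower.

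Genes of the small RNA machinery were also examined as targets of small RNAs, beside 14.7% of all genes called higher and 15.5% called lower. Among 8 primary Argonautes 2 were higher and 1 lower (25% and 12.5%). prg-1, the piRNA-binding Argonaute, was 1.43-fold lower at 710.5, 728 and 733 CPM against 986, 1058 and 1062 CPM (adjusted p = 0.00586). alg-3 and alg-4, Argonautes of spermatogenesis, were 2.63-fold and 4.10-fold higher at low levels, the call of alg-4 being lost without wild-type library 1 or 2 and that of alg-3 kept in the 6 fits with a library left out. Among 11 secondary Argonautes 2 were lower and 2 higher (18.2% each). hrde-1, the nuclear Argonaute of inherited silencing, had 796, 905 and 709 CPM against 1149, 1110 and 1162 CPM (1.42-fold lower, adjusted p = 0.0176), and ppw-2 was 1.38-fold lower. wago-5 was uneven in the mutant, at 71.0, 9.22 and 4.17 CPM against 0.546, 0.956 and 1.70 CPM (26.3-fold higher, adjusted p = 0.00855). The calls of hrde-1 and ppw-2 were lost without met-2 library 1 or 3 or wild-type library 1 or 3, and that of ppw-2 also without wild-type library 2.

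In the lists from nuclear RNAi to oocyte regulators below, 11.11% to 26.7% of the members were lower, against 15.5% of all genes. Of 15 genes of nuclear RNAi and inheritance 4 were lower and 0 higher: hrde-1, nrde-2, which helps silencing at chromatin, znfx-1, a helicase of germ granules, and morc-1, which was picked after its values were seen. znfx-1 and nrde-2 were 1.37-fold and 1.39-fold lower, and znfx-1 was lost without the same libraries as hrde-1, nrde-2 without met-2 library 1 or wild-type library 3. The list count became 0 without met-2 library 1 or wild-type library 3 and 1 without met-2 library 3 or wild-type library 1. Of 20 mutator and RNA-dependent RNA polymerase genes 4 were lower and 0 higher, of which rde-11 had 253, 223 and 328 CPM against 609, 538 and 778 CPM (2.39-fold lower, adjusted p = 0.00150). That count became 2 without any 1 library except met-2 library 3. Of 15 genes for the uptake and cutting of double-stranded RNA 3 were lower, with rde-4 1.37-fold lower, and 1, sid-3, was higher at 1.54-fold. The 3 lower calls became 1 without met-2 library 1 or 3 or wild-type library 3, and sid-3 was lost without met-2 library 1 or 3 or wild-type library 1 or 3. Of 18 P granule genes 4 were lower, among them meg-4 at 18.7, 13.2 and 15.2 CPM against 81.4, 103.8 and 182 CPM (7.79-fold lower, adjusted p = 8.97e-05).

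Of 39 genes of heterochromatin and the synMuv class, which repress germline and vulval fates, 9 were lower and 0 higher. cec-8, a chromodomain gene, had 19.9, 13.5 and 14.8 CPM in met-2 and 410, 348 and 546 CPM in wild type (27.1-fold lower, adjusted p = 4.03e-07). The overlapping genes lin-15A and lin-15B were 4.40-fold and 4.76-fold lower, and their reads may be shared. Of 79 ribosomal protein genes 17 were lower and 0 higher, with a median of −0.23, but only rpl-11.2 was far from wild type, at 3.42, 1.203 and 3.41 CPM against 73.0, 29.4 and 26.6 CPM. The 17 calls became 10, 10, 11 and 9 without met-2 library 1 and wild-type libraries 1, 2 and 3. Of 27 oocyte and germline RNA regulators 3 were lower, daz-1, fbf-1 and gld-1, each by less than 1.3-fold; daz-1 was lost without met-2 library 3 or wild-type library 1, and fbf-1 and gld-1 without any 1 library except met-2 library 2. Of 24 meiotic genes 1 was higher and 0 lower. dsb-1, which is needed for meiotic double-strand breaks, was that gene, 1.35-fold higher, and the call was lost without wild-type library 1.

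The remaining lists had calls in both directions, and for several the shares lay near the 14.7% higher and 15.5% lower of all genes, as for the histone and heat shock genes, of which 15.4% and 15.8% were lower. Of 22 body muscle genes 6 were higher and 3 lower: pat-2, an integrin, had 99.8, 11.096 and 22.2 CPM in met-2 and 1.27, 1.37 and 2.98 CPM in wild type (23.7-fold higher, adjusted p = 0.00440), and deb-1, which encodes vinculin, was 19.2-fold higher. Of 28 neuronal genes 7 were higher and 6 lower, with nrx-1, the neurexin gene, at 59.6, 464 and 14.97 CPM against 2.91, 4.10 and 5.103 CPM, and ser-5, a serotonin receptor, 12.3-fold lower. Of 40 C-type lectins 11 were higher and 10 lower. clec-12 had 1.09, 2.14 and 2.84 CPM against 87.2, 117 and 120 CPM, and clec-161 had 19.1, 229 and 7.01 CPM against 1.09, 0.683 and 2.13 CPM. The 11 higher lectins became 7, 5 and 5 without met-2 library 3 and wild-type libraries 1 and 2. Of 99 nuclear hormone receptors 23 were lower and 9 higher, and nhr-146 was 11.75-fold lower at 13.4, 16.98 and 12.7 CPM against 186, 139 and 181 CPM. Of 44 genes for cytochrome P450 and UDP-glucuronosyltransferase enzymes, which modify foreign compounds, 13 were higher and 4 lower, the 13 becoming 7 without wild-type library 2. Of 42 MATH and BATH genes 10 were lower and 2 higher, and of 39 histone genes 6 were lower and 3 higher. Of 38 heat shock genes 6 were lower and 2 higher, the 6 becoming 2 or 3 without any 1 library except met-2 library 1.

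The chromosomes differed in a regular way. In C. elegans the outer parts of the autosomes carry more repeats and more histone H3 lysine 9 methylation than the centres, and the X chromosome is mostly silent in the germline. With each chromosome divided into a centre and 2 arms, the outer 25% of its annotated length at each end, the share of genes called lower was greater in the arms on every chromosome, from 17% against 7.36% on IV to 29.6% against 9.09% on V and 36.1% against 21.5% on X. The share called higher was greater in the centres on every chromosome, from 13.7% against 7.47% on III to 24.6% against 11.63% on X. Neighbours tended to share a call. The next non-overlapping tested gene was called lower for 29.2% of the genes called lower, against 15.7% of all 9446 neighbour pairs, and was called higher for 22.3% of those called higher, against 14.7%. Families with clustered copies contribute to such pairs, and their part was not tested. Of 667 genes within 2 Mb of met-2, where a region carried along with the allele would lie, 99 were higher and 54 lower. These 14.8% and 8.10% stand beside 14.7% and 15.5% of all genes and 13.7% and 8.51% in the centre of III. The 99 became 64, 39 and 36 without met-2 library 3 and wild-type libraries 1 and 2.

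X-linked genes stood out by quantity. They held 4.26%, 3.56% and 4.25% of the CPM in the met-2 anti-GFP libraries and 6.70%, 6.66% and 7.61% in wild type. The means of 4.02% ± 0.398 and 6.99% ± 0.540 (SD, n = 3 each) thus did not overlap in their libraries, although with 3 against 3 an exact two-sided permutation test cannot go below 0.10. The control lines had 3.84% ± 0.402 in met-2 and 6.96% ± 0.511 in wild type. At F3 the anti-GFP lines had 5.53% ± 0.530 and 7.02% ± 0.357, so that the wild-type share was alike at F3 and F15 while the mutant share was lower at F15, again without overlap. The median change of the 1019 X-linked genes was near 0 at −0.03, with 301 genes lower (29.5%) and 178 higher (17.5%). Of all genes tested 15.5% were lower and 14.7% higher. Of the net X-linked difference in CPM, got-1.2 made up 9.88%, pks-1, a polyketide synthase gene, 5.38% and his-24, a linker histone gene, 4.75%. These genes were picked for the size of their difference, and the call of got-1.2 was lost without met-2 library 2 or 3 or wild-type library 1 or 3. pks-1 averaged 308 CPM in met-2 and 2119 CPM in wild type (adjusted p = 1.06e-04). The 178 higher calls became 110 and 105 without wild-type libraries 1 and 2.

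**Figure D4:**
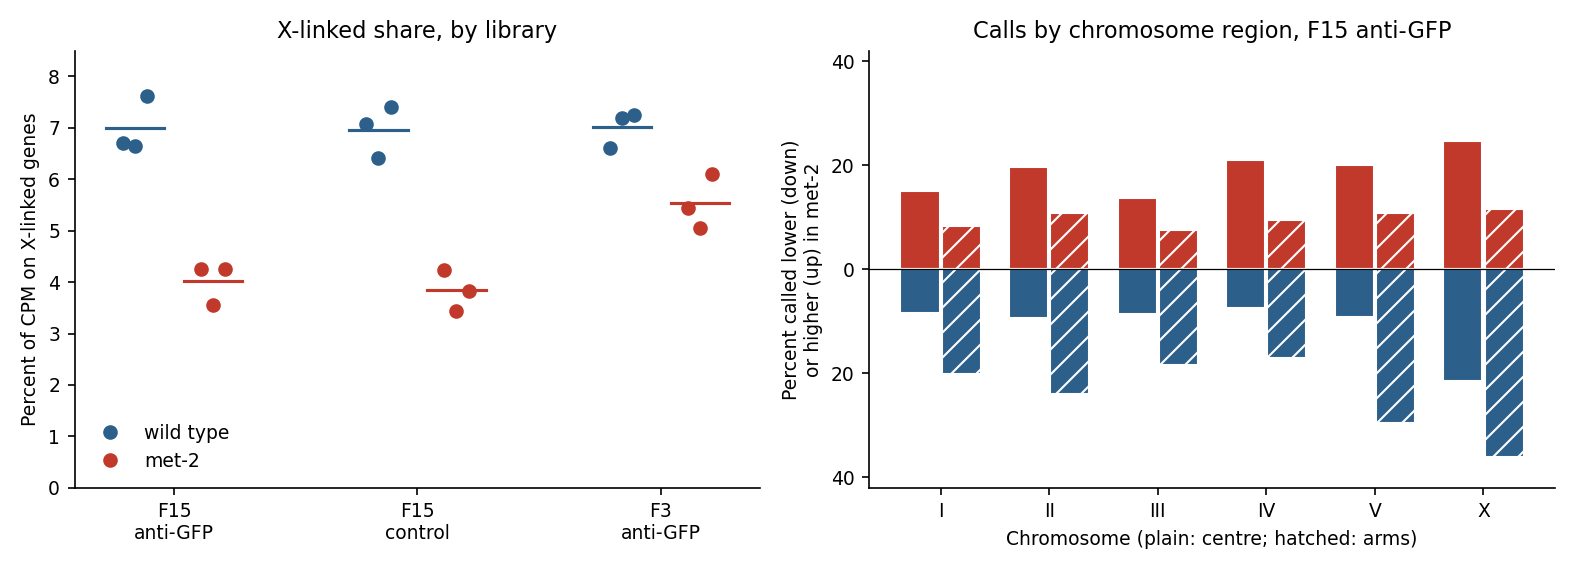
Left, percent of CPM on X-linked genes in each library (points) with the group mean (bars), wild type in blue and met-2 in red; right, percent of tested genes called higher (up) or lower (down) in met-2 in the F15 anti-GFP lines, by chromosome, for the centre (plain) and the arms (hatched). The X-linked share was 3.56 to 4.26% in met-2 and 6.66 to 7.61% in wild type, and the share of genes called lower was greater in the arms on each of the 6 chromosomes.

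The control lines, whose 6 libraries are separate from those above, asked whether the genotype effect depended on the ancestors' exposure to anti-GFP RNA. There 2035 genes were higher and 1861 lower in met-2 (19.1% and 17.4% of those tested). Of the genes called higher in the anti-GFP lines 1274 were also called higher in the control lines, which is 81.4% of the former and 62.6% of the latter. Of those called lower 1439 were shared, 87.1% and 77.3%. Only 2 genes were called in opposite directions, and GFP was one of them. Across the 10675 genes the changes had a Pearson correlation of 0.912, a value across genes, which are not independent replicates. The genes called higher in the anti-GFP lines had a median change of 2.04 in the control lines and those called lower −1.61. In the control lines the latter summed to 30.1% of 1000000 CPM in wild type and 13.8% in met-2. These too are not shares of each group's own total. E02H9.9, pdfr-1, arrd-15, F44E2.4 and tag-329 changed in the same direction in both. tag-329 changed less in the control lines (log2 5.97 against 9.31), as did scl-27 (−4.75 against −7.05), while E02H9.9 changed more (−8.98 against −8.18). None of these differences passed the test over all genes. In the control lines 98 of 160 F-box genes were lower, against 96 in the anti-GFP lines, and 26 of 27 sperm family genes higher, against 20. Of the other genes of sperm 19 were higher, against 11, of the ribosomal protein genes 28 lower, against 17, of the P granule genes 7 lower, against 4, and of the cuticlins 3 higher, against 5. Whether these counts differ was not tested. In fits of the 2 compared groups alone, 2849 of 10029 genes were called in the control lines and 3072 of 9912 in the anti-GFP lines. Which set of lines had more calls thus depended on the fit.

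The effect itself differed between the 2 sets of lines for 1 gene of 10675 (0.00937%). That gene was GFP, whose effect was 4.05 higher on the log2 scale in the anti-GFP lines (SE 0.16, adjusted p = 6.08e-07). No gene had a lower effect by this test, although 211 genes (1.98%) had an unadjusted p under 0.05 in either direction, and DESeq2 called 6 genes higher and 5 lower. Without met-2 control library 2, 5 genes were called lower, and without met-2 anti-GFP libraries 1 and 2, 1 and 3 genes. Without met-2 anti-GFP library 3 or wild-type anti-GFP library 1, 2 genes were called higher.

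**Figure D5:**
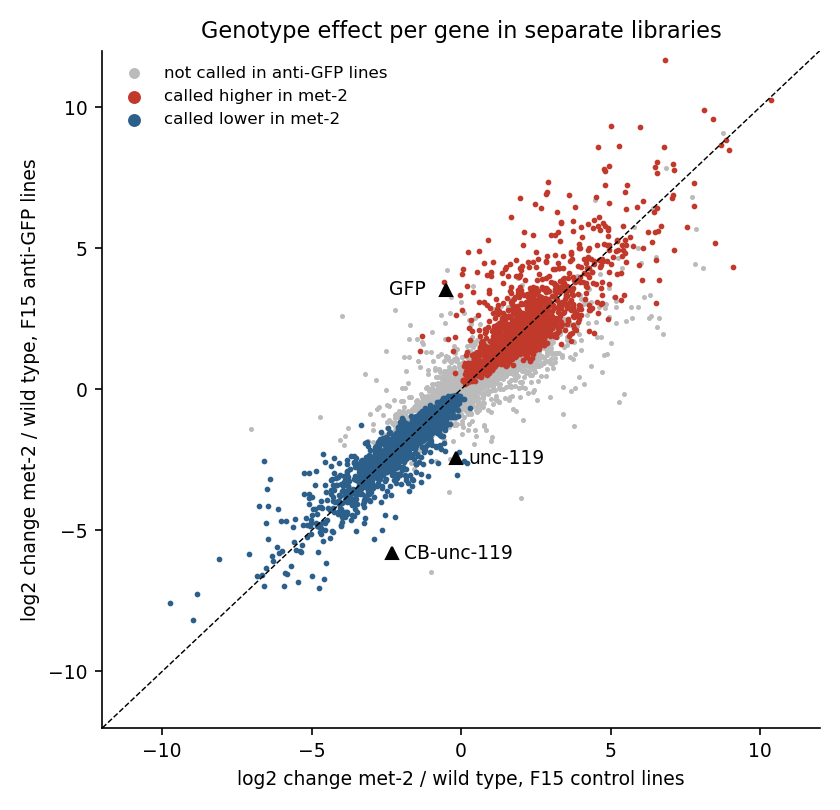
Log2 change of met-2 over wild type for each of 10675 genes in the F15 control lines (x axis) and F15 anti-GFP lines (y axis), with genes called in the anti-GFP lines in red (higher) and blue (lower), others in grey, and a dashed line where both are equal. Most genes follow the line, while GFP lies at −0.52 and 3.53, CB-unc-119 at −2.30 and −5.81 and unc-119 at −0.16 and −2.43.

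At F3, 12 generations earlier, 1802 genes were higher and 1466 lower in met-2 among 11439 tested (15.8% and 12.8%). Of the F15 calls tested there, 953 of 1452 higher genes (65.6%) and 1042 of 1649 lower genes (63.2%) were called the same way, and the changes correlated at 0.832 across 10393 genes. The genotype effect differed between F15 and F3 for 131 of 11858 genes (1.10%), of which 23 had a higher effect at F15 (0.194%) and 108 a lower one (0.911%). F3 and F15 libraries may differ in preparation as well as in generation, and these cannot be told apart. The 108 genes became 71, 45, 48 and 66 without met-2 F15 library 2, wild-type F15 library 3 and wild-type F3 libraries 1 and 3. The 23 genes became 8 to 15 without met-2 F3 library 1 or 2 or any 1 wild-type library of either generation.

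The genes with a lower effect at F15 were frequent on the X chromosome, with 41 of 1207 X-linked genes (3.40%) against 0.290% of genes on III and 0.979% on V. The median difference over all tested X-linked genes was −0.23, and between −0.06 and −0.01 on each autosome. Both these 41 and the 67 other genes with a lower effect had a lower mean in met-2 at F15 than at F3, with median log2 differences of −1.50 and −2.42 in met-2 and of 0.22 and 0.02 in wild type, which describes the genes the test chose. Of the 6 genes with the largest difference, most had small RNAs in the mutant at F3 that were near wild type at F15. cpna-2, which encodes a copine-domain protein of muscle, had 593, 443 and 87.8 CPM in met-2 at F3 and 13.2, 6.13 and 1.82 CPM at F15, with wild type at 1.46 to 4.002 CPM throughout (difference −5.88, SE 1.10, adjusted p = 0.00400). eff-1, the gene of the cell fusion protein, had 6.90, 52.4 and 46.8 CPM at F3 and 0.152, 0.133 and 0.546 CPM at F15. D1054.8 was of the same kind, with a difference of −5.12. cutl-27 (difference −6.80) was uneven at F3, at 46.1, 35.7 and 0.346 CPM in met-2 against 0.130 to 0.289 CPM in wild type. C18H2.5 fell from 213, 112.3 and 42.9 CPM to 4.702, 3.33 and 9.65 CPM in met-2 (difference −5.38) but remained 8.11-fold above wild type at F15, where it was called higher (adjusted p = 0.00380). K01D12.1 instead had small RNAs in wild type at both times and in met-2 only at F3, at 16.4, 6.27 and 8.12 CPM against 0.152, 0.266 and 0 CPM at F15 (difference −5.32, adjusted p = 0.00783). C18H2.5 and D1054.8 lost the call without wild-type F15 library 2, cutl-27 without wild-type F15 library 3 or wild-type F3 library 1, and eff-1 in 8 of 12 fits with a library left out.

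Other named genes shared this course. The muscle gene ttn-1, which encodes titin and was picked after its values were seen, had 223, 169 and 196 CPM in met-2 at F3 and 13.5, 12.4 and 11.66 CPM at F15, against 4.91 to 11.4 CPM in wild type (difference −4.52, adjusted p = 1.01e-05). unc-22, the twitchin gene, and unc-89, the obscurin gene, picked likewise, had differences of −3.05 and −2.62. arrd-15 and clec-238 lost further small RNAs between the generations: arrd-15 had 25.5, 17.3 and 15.9 CPM in met-2 at F3 and 1.97, 1.199 and 1.82 CPM at F15, while wild type had 158 to 210 CPM and 128 to 143 CPM (difference −3.11, adjusted p = 0.0149).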

How the data were processed

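The authors deposited raw counts per gene, 1 file per library, from HTSeq; per the submitters' processing notes, cutadapt, FastQC, Bowtie2 and DESeq2 were also used, with the builds WBcel235 and ce11, and versions, strand setting and length filter are not given in the sources used here. Per the labels' protocols, TRIZOL was used for the RNA and either the NEBNext or the TruSeq small RNA kit for the libraries, which one for which library is not stated. The HTSeq counter rows, 54.2 to 62.0% of records in the F15 libraries, were left out. Of 20449 gene rows 20159 matched the Ensembl annotation of WBcel235, and the 290 others, with GFP and CB-unc-119 among them, were kept.

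Genes were tested with edgeR 4.0.16 (R 4.3.3): robust quasi-likelihood F test, two-sided, TMM factors, and filterByExpr by group (minimum count 10, minimum total 15). The 12 F15 libraries were fitted together. The F3 fit held all SX1263 libraries of F3, and the step from F3 to F15 used these and the 12 F15 libraries in 1 fit. The F3 libraries thus included lines of empty-vector ancestors and set-25 and met-2;set-25 mutants. Those groups entered the filter, the scaling and the estimate of the spread but not the F3 comparison itself. Calls needed an adjusted p (Benjamini-Hochberg over all genes tested) under 0.05. CPM use the same factors. A ratio with 1 to 3 counts in the lower group carries a 95% exact binomial interval for counting error only, and with 0 counts it is a lower bound from 3 counts over the group; PCR duplicates were not marked, so both cover counting error only. DESeq2 1.42.0, RLE factors, no filter, a fit of 2 groups, a replicate block and leaving out each library were the alternatives. The code was tested on simulated counts.

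Named genes were the reporter rows, met-2 and set-25, the 10 largest rises and falls among genes reaching 5 CPM in the group where they were higher and not overlapping between groups, the 5 most abundant calls each way, up to 3 calls per list, and up to 6 per difference of effects; any other is marked as picked by its values. The genes, lists and tests were chosen with earlier results of these data known. Beyond the overlaps given above, set-25, abu-13, cdh-12, pan-1, eri-6, prg-1, fbf-1, pat-2, ser-5, cpna-2 and eff-1 overlap a gene on the other strand. dsb-1 and T08D2.4 each overlap a gene on their own strand. Reads of such pairs cannot be told apart.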

Additional observations from a re-analysis of the deposited data

Results flagged for a closer look

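Results were set apart here where the genotype effect differed between 2 kinds of lines by a test of the difference itself; groups of 3 are too small for a test of single outlying libraries. The GFP effect was 4.05 higher on the log2 scale in the F15 anti-GFP lines than in the F15 control lines, and 1.90 higher at F15 than at F3 after anti-GFP feeding. Between F15 and F3 the effect was lower by 2.98 log2 units for CB-unc-119 (difference −2.98) and by less for unc-119 (difference −1.67). The 6 genes with the largest such difference were eff-1 (−6.83), cutl-27 (−6.80), cpna-2 (−5.88), C18H2.5 (−5.38), K01D12.1 (−5.32) and D1054.8 (−5.12).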

How the results depend on the processing

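Without single libraries the F15 anti-GFP counts ran from 777 to 1392 higher and 1250 to 1434 lower, those of the control lines from 1374 to 2037 and 1553 to 1793, and those at F3 from 1331 to 1657 and 1098 to 1441. The GFP change ran from 3.47 to 3.57 and that of CB-unc-119 from −6.78 to −5.46. The difference from the control lines ran from 3.99 to 4.15 for GFP and −4.48 to −3.15 for CB-unc-119, with 1 to 2 genes higher and 0 to 5 lower. The difference from F3 gave 59 to 134 genes in all, with 8 to 30 higher and at least 45 lower. DESeq2 gave 6 higher and 5 lower genes for the former and 243 for the latter, 48 higher and 195 lower, and called CB-unc-119 and unc-119 in the former (−3.52, adjusted p = 4.35e-04, and −2.29, adjusted p = 6.97e-06), which the other fits on all libraries did not. Of the named genes called in the F15 anti-GFP lines, 85 stayed called without each single library and 34 did not; 11 were lost without the low-count filter, 11 in a fit of the 2 groups alone, 5 with the replicate block, 1 with RLE factors and 1 with DESeq2. No named result changed its direction under the alternatives run. Same-numbered met-2 and wild-type anti-GFP libraries deviated together with correlations of 0.0828, 0.0620 and −0.00498, so the numbers were not taken to pair them. In the control lines the same correlations were 0.0932, 0.118 and 0.161, and each met-2 library matched the wild-type library of its own number best. Between anti-GFP and control libraries they were 0.0393 to 0.241 in met-2 and 0.267 to 0.315 in wild type. In wild type each library again matched its own number best. These matches are a hint from the data and not from the design. With the replicate block 3829 genes were called and 3124 of the 3218 calls stayed, and some list counts rose by over 1.5 times: 5 secondary Argonautes and 7 P granule genes lower, and 3 heterochromatin, 5 histone and 2 meiotic genes higher, with 1 meiotic gene lower and 1 worm-specific Argonaute target higher where there had been 0. Genes with a few counts per library are limited by depth, where 3 counts are 0.401 to 0.638 CPM.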
